A study of Bos taurus with 36 samples.

Results

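Mitochondrial carriers and the machinery that brings proteins into mitochondria were followed in the liver of dairy cows before and after lipopolysaccharide (LPS) entered the udder. The genes were taken by name: probe sets annotated with a single symbol that begins with SLC25A, TOMM or TIMM, without SLC25A1, SLC25A15 and SLC25A20. This rule gave 57 of the 24128 probe sets of the bovine array, of which 35 measured 24 carrier genes and 22 measured 18 import genes. All 57 matched a cattle gene record of the same symbol.

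Liver biopsies came from 8 Holstein-Friesian cows that had calved for the first time 9 to 12 weeks earlier. At time 0 each cow received 200 µg of E. coli LPS in saline in the right front gland of the udder and saline alone in the left front gland. At 3, 6 and 12 h the arrays came from 4 cows, and at -22, 9 and 48 h from all 8 cows, which made 36 arrays. The biopsy at -22 h was the only one before the infusion and the baseline of every comparison. All 36 arrays came from cows given LPS, so the effects of LPS, of the hour of day and of repeated biopsies cannot be told apart on them. The paper reports control cows infused with saline, in which biopsies changed neither clinical measures nor a chosen subset of genes. A biopsy mixes all cells of the liver, and fewer cells of a type and less RNA per cell cannot be told apart.

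Carriers of the SLC25 family sit in the inner mitochondrial membrane and exchange ADP for ATP, bring in phosphate, and move amino acids, dicarboxylates, cofactors and iron. They are made in the cytosol and have to be imported like nearly every other mitochondrial protein. The TOM complex is the entry gate of the outer membrane. Behind it, the small TIM chaperones escort carrier precursors through the intermembrane space to the TIM22 complex, which inserts them into the inner membrane, while the TIM23 complex takes up proteins with a cleavable presequence.

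Array values are log2 values, and a change is the mean at an hour minus the mean at -22 h, given with its standard error. A probe set was called higher or lower at an hour when its limma p, Benjamini-Hochberg-adjusted over all 24128 probe sets, was below 0.05. Array medians lay between 4.15 and 4.38. Of the 57 probe sets, 43 reached a log2 value of 5 on 4 or more arrays (23 carrier and 20 import probe sets), and the 14 others were dim, with means between 2.09 and 4.28, and a fall that ends at the floor of the scale is measured only in part. All 10 hepatocyte markers were measured, and their mean per array lay between 13.32 and 13.73 at 9 h and between 13.91 and 14.19 at -22 h, with 1 marker higher and 7 lower at 9 h. Of 7 neutrophil markers 5 were higher at 9 h (mean per array 6.70 to 8.38, against 3.98 to 4.49 at -22 h). The granule gene MPO was among these 5, though it averaged 2.48 at -22 h and changed by only 0.06. The granule gene ELANE averaged 2.11, changed by 0.03 and was not called. Of 8 Kupffer cell and macrophage markers 4 were lower at 9 h, and of 8 endothelial markers 5 were lower and 1 higher. The 1 higher was KDR, which averaged 2.43 at -22 h and changed by 0.07. Over all genes, 36.6% were higher and 28.4% lower at 9 h. The part of these cells in the results below was not tested.

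Most import probe sets called at 6, 9 and 12 h were higher, and carrier probe sets were called in both directions. Among the 22 import probe sets, 12 were higher and 5 lower at 6 h, where the shares over the whole array were 23.3% higher and 22% lower. At 9 h, 15 were higher and 4 lower (whole array: 32% higher and 22.6% lower), and at 12 h, 15 were higher and 2 lower (22.2% and 18.9%). At 48 h, 1 was higher and 8 lower (17.9% and 12.2%), and the 1 higher was a TOMM34 probe set at the floor with a change of 0.06. Of the 11141 probe sets with a mean of at least 5, where 20 of the 22 import probe sets lay, 11.4% were higher and 22.3% lower at 48 h, against 0% and 40% of these 20. At 9 h the shares were 40.4% higher and 38.8% lower over those probe sets and 70% and 20% over the 20. None was called at 3 h, where the array as a whole had 3.5% higher and 2.4% lower.

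Of the 35 carrier probe sets, 2 were higher and 2 lower at 3 h, 7 and 10 at 6 h, 10 and 14 at 9 h, 11 and 10 at 12 h, and 3 and 9 at 48 h. These are 5.71% and 5.71% at 3 h, 20% and 28.6% at 6 h, 28.6% and 40% at 9 h, 31.4% and 28.6% at 12 h, and 8.57% and 25.7% at 48 h. Both shares at 3 h and the share higher at 6 and 9 h lay within 4 percentage points of those of the whole array. Of the 23 carrier probe sets with a mean of at least 5, 10 were higher and 9 lower at 9 h. Over all probe sets with such a mean, 40.4% were higher and 38.8% lower. The median carrier probe set stayed near the median of all probe sets at every hour (-0.09, -0.09, -0.08, 0.03 and -0.08 at 3, 6, 9, 12 and 48 h, against -0.03, 0.03, 0.03, 0.01 and 0.03 over all probe sets). The median import probe set changed by 0.01, 0.33, 0.94, 0.88 and -0.16 at the same hours. At 9 h the median over import probe sets was above 0 in each of the 8 cows, between 0.67 and 1.09, while that over carriers lay between -0.18 and 0.06. When each array was centred on its brighter probe sets, the medians at 48 h moved to 0.055 for carriers and -0.025 for import, and the 48 h calls over both groups were 9 higher and 15 lower in place of 4 and 17. Over the 4 cows with all biopsies, 5 carrier and 3 import probe sets were called at 48 h. The share of all probe sets called was not counted over these 4 cows or after centring.

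**Figure D1:**
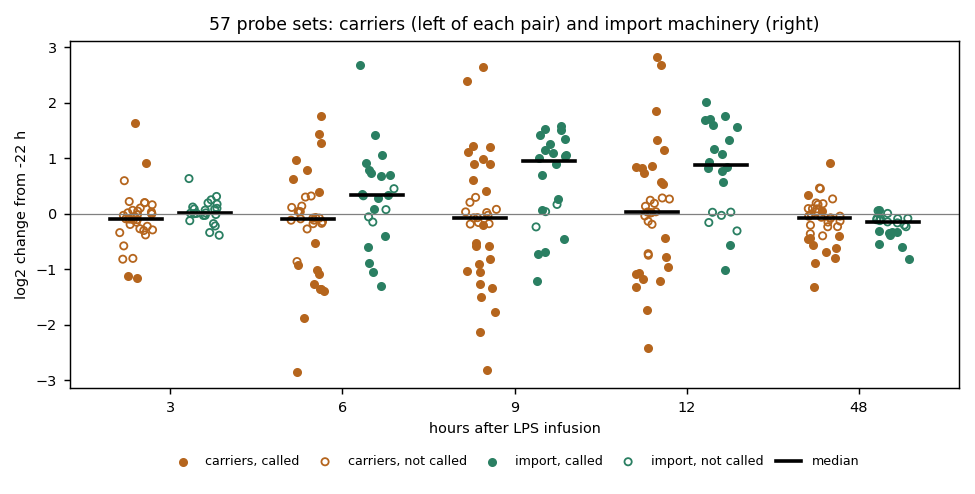
Log2 change from -22 h (vertical axis) of each carrier probe set (brown, left of each pair) and each import probe set (green, right) at 3, 6, 9, 12 and 48 h, with filled points for calls at an adjusted p below 0.05 and a black bar for the median. Import medians reach 0.94 at 9 h and 0.88 at 12 h, while carrier points spread on both sides of 0 around medians of -0.08 and 0.03.

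Counted by gene, each read through its brightest probe set, 12 of 18 import genes were higher and 4 lower at 9 h, and 13 were higher and 2 lower at 12 h. Of the 24 carrier genes, 8 were higher and 10 lower at 9 h and 9 were higher and 9 lower at 12 h. Over all 9155 measured genes, 36.6% were higher and 28.4% lower at 9 h, and 30.9% and 22.2% at 12 h. At 6 h, 8 import genes were higher and 5 lower, and 7 carrier genes were higher and 9 lower. The shares at 6 h were 23.3% higher and 22% lower over all probe sets, which is not a like measure for counts of genes. At 9 h the share higher was 32% over all probe sets and 36.6% over all genes. Of the 18 import genes, 9 were called with their largest deviation as a rise at 12 h, while carriers had largest deviations at every hour from 3 to 48 h. Across the 42 genes, 41 were called at 1 or more hours. The exception was SLC25A17, a carrier of the peroxisomal membrane, whose changes lay between -0.24 at 48 h and 0.26 at 12 h. SLC25A17 was called lower at 48 h with the cow in the model (adjusted p = 0.0459), with array weights (0.0118) and without cow 7 (0.0267).

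**Figure D2:**
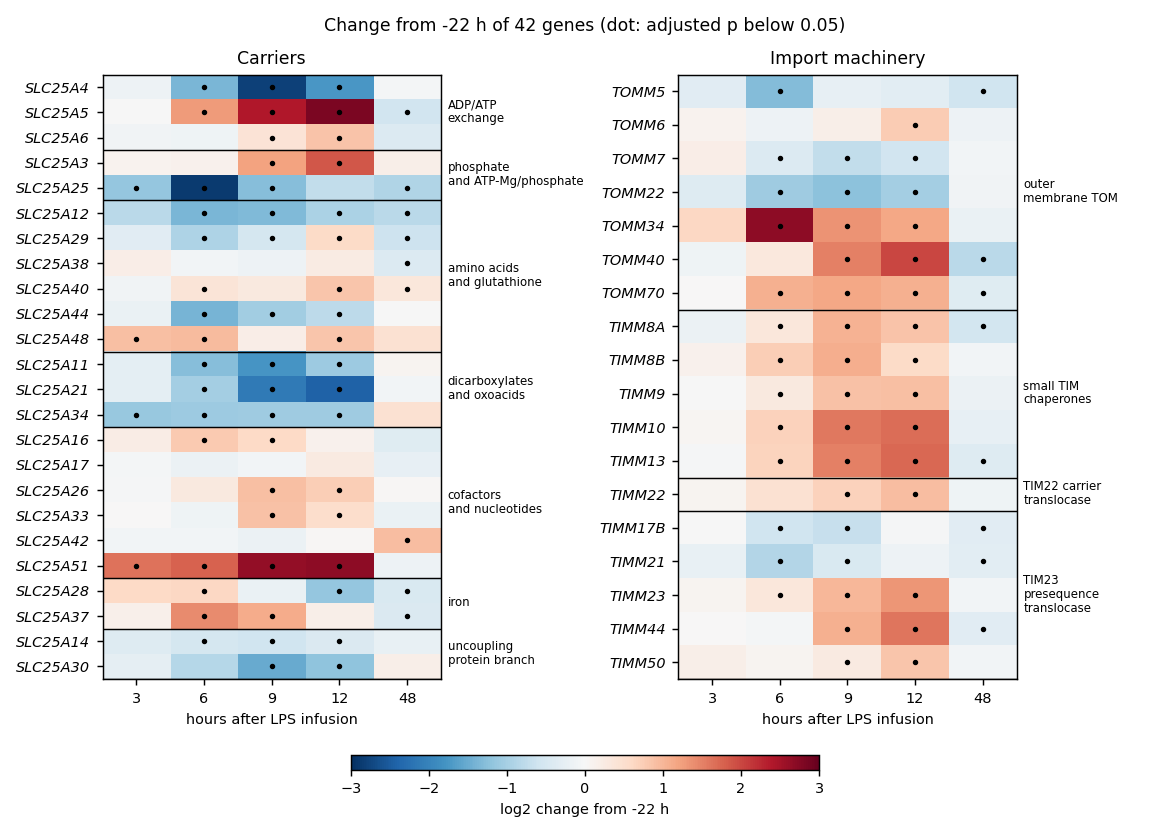
Log2 change from -22 h (colour, blue lower and red higher) of the 24 carrier genes (left) and 18 import genes (right) at 3, 6, 9, 12 and 48 h, grouped by role, with a dot for each call at an adjusted p below 0.05. The 3 dicarboxylate and oxoacid carriers are blue and the 5 small TIM chaperones red from 6 to 12 h.

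The ADP/ATP exchangers, close relatives that swap matrix ATP for cytosolic ADP, moved in opposite directions. SLC25A4, the form best known from heart and muscle of mammals, fell. Its values at 6 h were 10.87, 10.97, 11.60 and 11.58 in the 4 cows, and at 9 h they ran from 9.31 to 10.16 with a median of 9.88 over 8 cows, against 12.42 to 12.76 with a median of 12.66 at -22 h. Every array at 6, 9 and 12 h lay below every array at -22 h. The changes were -1.37 ± 0.17 at 6 h, -2.81 ± 0.14 at 9 h (7.01-fold lower, adjusted p = 7.53e-18) and -1.74 ± 0.17 at 12 h. At 48 h the change was -0.05 ± 0.14 and the values overlapped those at -22 h.

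SLC25A5, the form that dividing cells of other mammals use, went the other way. Its brighter probe set read 9.67, 10.08, 10.37 and 10.47 at 6 h and 11.55, 11.78, 11.44 and 12.08 at 12 h, against 8.29 to 9.19 with a median of 8.98 at -22 h. None of the arrays at 6, 9 or 12 h overlapped those at -22 h. The changes were 1.27 ± 0.16 at 6 h, 2.39 ± 0.13 at 9 h and 2.83 ± 0.16 at 12 h (7.12-fold higher, adjusted p = 1.56e-15), and at 48 h SLC25A5 was lower by 0.57 (change -0.57 ± 0.13, adjusted p = 0.00252). Within a cow, the change of SLC25A5 exceeded that of SLC25A4 by 5.20 ± 0.32 at 9 h (SD, 8 cows), with a range of 4.72 to 5.69.

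Other probe sets of the same genes did not all follow. A second SLC25A5 probe set changed by -0.59 at 9 h (adjusted p = 0.0456) and by -1.32 at 48 h (adjusted p = 2.76e-04), opposite to the brighter one at 9 h. The 9 h call of this second probe set was lost without each of cows 1, 3, 4, 5 and 8, with adjusted p up to 0.177. SLC25A6, the third exchanger, read 12.34, 12.63, 12.63 and 12.62 on its brightest probe set at 12 h, above the 11.40 to 12.12 at -22 h, a change of 0.86 ± 0.20 (adjusted p = 5.92e-04). The call on its 9 h change of 0.41 (adjusted p = 0.0341) was lost without cow 2, 5, 6 or 8 (adjusted p up to 0.107). Another SLC25A6 probe set was lower by 0.91 at 9 h (change -0.91, adjusted p = 2.09e-08) and by 1.31 at 12 h (change -1.31, adjusted p = 1.27e-09), with no overlap with -22 h. Which transcript each probe set reads was not tested, so the direction of SLC25A6 is not settled by these arrays, and that of SLC25A5 rests on the brighter probe set.

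The phosphate carrier SLC25A3, which supplies ATP synthase with phosphate, rose late. Its values were 13.47, 13.56, 13.09 and 13.72 at 12 h and ran from 12.52 to 13.08 (median 12.81) at 9 h, against 11.32 to 11.79 (median 11.66) at -22 h. The change was 0.14 ± 0.11 at 6 h, 1.21 ± 0.09 at 9 h and 1.86 ± 0.11 at 12 h, the last one 3.62-fold with an adjusted p of 1.10e-15. All 8 cows at 9 h and all 4 at 12 h were higher than at -22 h, with no overlap.

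SLC25A25, which exchanges ATP-Mg for phosphate and so sets the adenine nucleotide content of the matrix, fell early. It read 6.65, 5.73, 6.95 and 6.89 at 6 h, against 9.14 to 9.88 (median 9.35) at -22 h. The change was -2.86 ± 0.33 (7.26-fold lower, adjusted p = 1.30e-08) at 6 h and -1.27 ± 0.27 (adjusted p = 1.86e-04) at 9 h, where the cows differed widely, from 7.11 to 9.72. At 3 h the change was -1.16 ± 0.33 and all 4 arrays were below every -22 h array, but the call (adjusted p = 0.0311) was lost without each of cows 1, 3, 5, 7 and 8, with adjusted p up to 0.137. At 48 h it was still lower by 0.89 (change -0.89 ± 0.27, adjusted p = 0.0185), in all 8 cows and without overlap with -22 h. Without cow 1 the adjusted p at 48 h was 0.0597. Over the 4 cows with all biopsies it was 0.207. The second probe set of SLC25A25 was also lower at 6 h, with a change of -1.89, but changed by -0.07 at 48 h (adjusted p = 0.888), so the fall at 48 h rests on 1 probe set.

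SLC25A51, which carries NAD+ into mitochondria in human cells, rose early. It read 6.65, 6.39, 6.80 and 7.23 at 3 h, against 4.49 to 5.82 (median 5.17) at -22 h, a change of 1.63 ± 0.24 (3.09-fold, adjusted p = 1.09e-05). The rise grew to 2.64 ± 0.19 at 9 h (6.24-fold, all 8 cows) and 2.67 ± 0.24 at 12 h, and at 48 h the change was -0.15 ± 0.19 with overlapping values. No array from 3 to 12 h overlapped those at -22 h. SLC25A51 was the only member that passed the stricter test between successive hours for the step from -22 to 3 h.

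**Figure D3:**
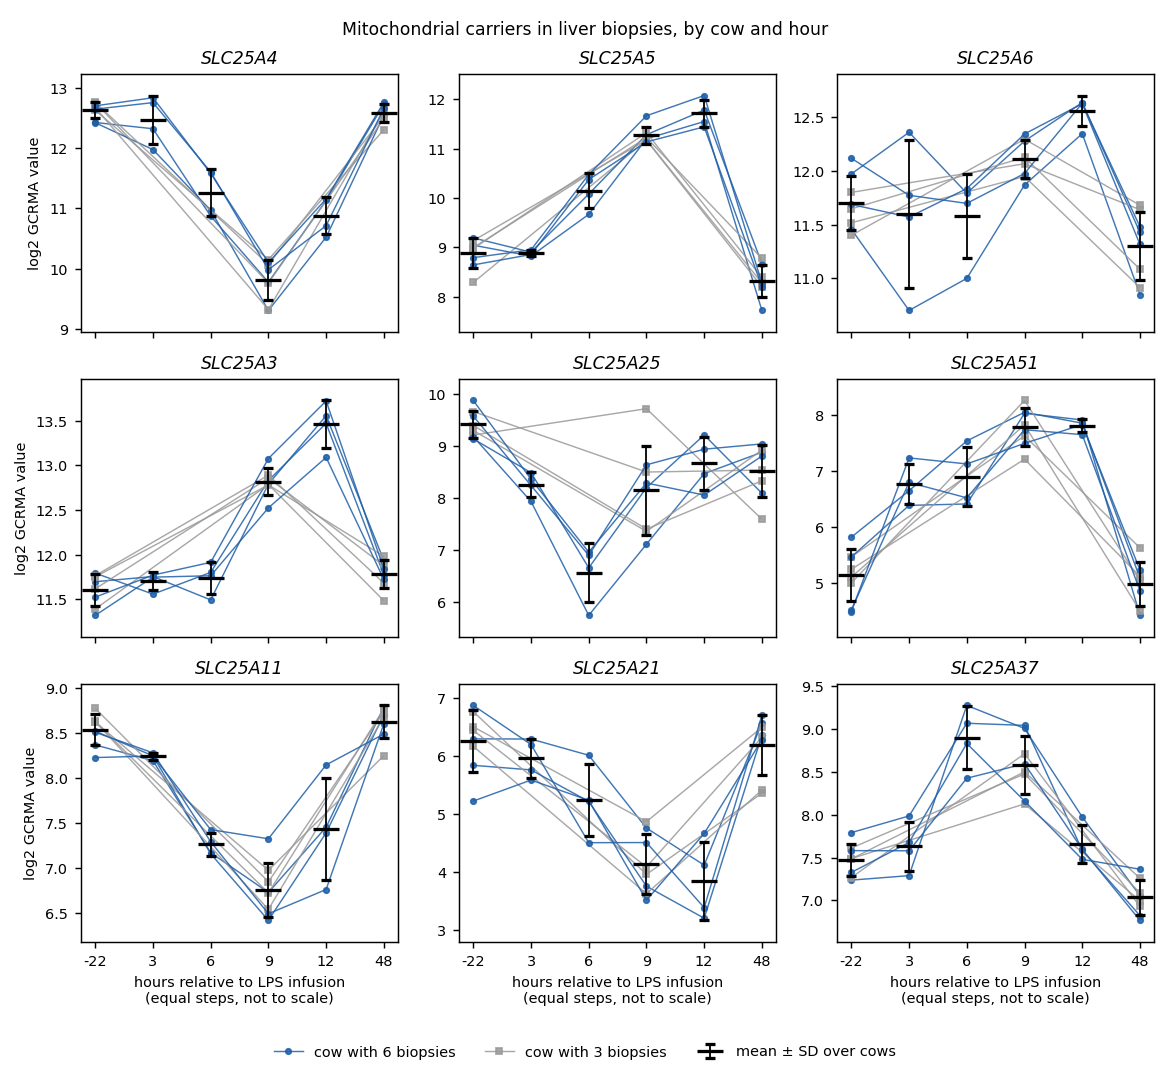
Log2 value (vertical axes, each panel with its own range) of 9 carriers at the 6 biopsy hours from -22 to 48 h, with lines joining the biopsies of a cow (blue circles, cows with 6 biopsies, and grey squares, cows with 3) and black bars for the mean ± SD. SLC25A4 runs down to a median of 9.88 at 9 h while SLC25A5 runs up to 11.21, and SLC25A25 is lowest at 6 h.

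Among the other cofactor and nucleotide carriers, SLC25A26, which brings S-adenosylmethionine into mitochondria, was higher at 9 h (change 0.89 ± 0.12, 8 of 8 cows) and at 12 h (0.73 ± 0.15). SLC25A33, a pyrimidine nucleotide carrier, was higher at 9 h (0.89 ± 0.15, 8 of 8 cows) and SLC25A16 at 6 h (0.78 ± 0.19) and 9 h (0.60 ± 0.15). In the main model, which has no term for the cow, none of the 6 genes of this group, and none of its 9 probe sets, was called lower. Over all probe sets, 2.4% were lower at 3 h, 22% at 6 h, 22.6% at 9 h, 18.9% at 12 h and 12.2% at 48 h. With the cow as a replicate block, SLC25A16 (change -0.36, adjusted p = 0.0074) and SLC25A17 (change -0.24, adjusted p = 0.0459) were lower at 48 h. SLC25A42, a carrier of coenzyme A, lay at the floor until 12 h and was called only at 48 h, at 2.54 to 3.67 (median 3.30), against 2.23 to 2.74 (median 2.23) at -22 h. It was higher in all 8 cows, by 0.91 ± 0.11 (adjusted p = 7.45e-07), at a level close to the background of the array.

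The 3 dicarboxylate and oxoacid carriers were lower at 6, 9 and 12 h on their brightest probe sets (3 of 5 probe sets at each hour). Over all probe sets, 22%, 22.6% and 18.9% were lower at these hours. SLC25A11, which exchanges malate for oxoglutarate in the malate-aspartate shuttle, ran from 6.42 to 7.32 (median 6.73) at 9 h, against 8.22 to 8.77 (median 8.57) at -22 h. Its change at 9 h was -1.77 ± 0.13 (adjusted p = 1.41e-13) and all 8 cows fell. SLC25A21, a carrier of oxoadipate and related oxodicarboxylates, read 4.12, 3.20, 4.66 and 3.39 at 12 h, against 5.22 to 6.87 (median 6.37) at -22 h, a change of -2.42 ± 0.32 (adjusted p = 1.37e-07), and was lower at 9 h by 2.13 (change -2.13 ± 0.26) in 8 of 8 cows. Its 6 h call (change -1.02, adjusted p = 0.00965) was lost without cow 8 (adjusted p = 0.117). SLC25A34, grouped with them here, was dim. It fell at 3 h to 3.16, 3.17, 3.12 and 3.01, against 3.74 to 4.86 at -22 h (change -1.13 ± 0.25, adjusted p = 0.00402), and stayed at that level until 12 h, so the floor may hide part of its fall. All 3 were back within the range of -22 h or above it at 48 h, and none was called there on its brightest probe set. SLC25A34 was called higher at 48 h over the 4 cows with all biopsies (change 0.90, adjusted p = 0.0486), after centring (0.0231), without cow 7 (0.0462) and without the 48 h array of cow 2 (0.0363).

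Amino acid and glutathione carriers went different ways. SLC25A44, which takes up branched-chain amino acids in mammals, read 6.97, 6.65, 6.76 and 6.78 at 6 h, against 7.87 to 8.46 (median 8.21) at -22 h, a change of -1.39 ± 0.11 (adjusted p = 2.10e-12), and the change shrank to -1.04 at 9 h and -0.78 at 12 h. SLC25A12, an aspartate/glutamate carrier, fell to the floor at 6 h (2.35 to 2.60, against 2.62 to 4.55 at -22 h, change -1.36 ± 0.30), so the size of its fall is not known. SLC25A29, a carrier of basic amino acids, was lower at 6 h (-0.93 ± 0.23), 9 h and 48 h and higher at 12 h (0.58 ± 0.23, adjusted p = 0.0421). Its 12 h call was lost without cow 1, 2, 5, 6 or 8 (adjusted p up to 0.215) and after centring (0.0524), and its 9 h call without cow 7 (0.0582). SLC25A48, grouped with them here, was higher at 3 h (0.91 ± 0.27, adjusted p = 0.034), 6 h and 12 h. Its 3 h call was lost with the cow in the model (adjusted p = 0.0811) and without each of 6 cows (adjusted p up to 0.154), and its 12 h call without cow 1 or 3. SLC25A40, a glutathione carrier of human cells, was dim and higher at 12 h (0.82 ± 0.16, 4 of 4 cows). SLC25A38, the glycine carrier of haem synthesis, was called only at 48 h, with a change of -0.40 ± 0.09.

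The mitoferrins, which bring iron into mitochondria, parted in time. SLC25A37 read 9.07, 9.28, 8.43 and 8.83 at 6 h, against 7.24 to 7.79 (median 7.49) at -22 h, a rise of 1.43 ± 0.16 (adjusted p = 6.45e-09), was still higher at 9 h (1.11 ± 0.13, 8 of 8 cows), and was lower at 48 h (-0.44 ± 0.13). SLC25A37 is also known from red cell precursors. Of the 7 erythroid markers measured, 6 stayed below a log2 value of 5 on every array at 9 h and all 7 at the other hours. Their mean per array lay between 2.37 and 2.85 at 9 h, against 2.28 to 2.41 at -22 h. At 9 h 3 were higher and 0 lower, where 36.6% of all genes were higher and 28.4% lower. The 3 were HBA, HBM and EPB42, which averaged 2.299, 2.143 and 2.205 at -22 h and changed by 0.064, 0.035 and 0.035. SLC25A28 read 11.48, 12.25, 11.55 and 11.46 at 6 h, against 10.84 to 11.35 at -22 h (change 0.62 ± 0.19, adjusted p = 0.00668), and 9.66, 10.16, 9.88 and 9.88 at 12 h (change -1.17 ± 0.19, adjusted p = 2.98e-06). Neither the higher arrays at 6 h nor the lower ones at 12 h overlapped -22 h. At 48 h SLC25A28 was lower by 0.46 (change -0.46). Without cow 1 the 48 h calls of both were lost (adjusted p = 0.0656 for SLC25A37 and 0.148 for SLC25A28). The SLC25A28 call at 48 h was lost under 5 alternatives in all, 2 of them with a cow left out. Its 6 h call was lost under 1 alternative (adjusted p = 0.0976).

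Both relatives of the uncoupling proteins were lower at 9 and 12 h, where 22.6% and 18.9% of all probe sets were lower. SLC25A30 ran from 3.75 to 5.78 (median 4.17) at 9 h, against 5.27 to 6.98 (median 5.88) at -22 h, with 7 of 8 cows lower and a change of -1.51 ± 0.32 (adjusted p = 1.33e-04). Over the 4 cows with all biopsies the change was -0.98 with an adjusted p of 0.11. Its 12 h call was lost without cow 8 (adjusted p = 0.235). SLC25A14 was dim and changed by -0.59 ± 0.13 at 9 h (8 of 8 cows lower). Its 12 h call (change -0.43, adjusted p = 0.0229) was lost with the cow in the model (0.0576) and without cow 1, 3, 4, 6 or 8.

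Among the TOM genes of the outer membrane, the pore TOMM40, the carrier receptor TOMM70 and the small subunit TOMM6 rose, while the receptor TOMM22 and the small subunits TOMM5 and TOMM7 fell. TOMM40, the pore, read 8.41, 8.80, 7.63 and 9.41 at 12 h and ran from 7.20 to 8.53 (median 8.17) at 9 h, against 6.31 to 6.96 (median 6.46) at -22 h. Its changes were 1.50 ± 0.19 at 9 h (8 of 8 cows) and 2.01 ± 0.23 at 12 h (4.03-fold, adjusted p = 7.05e-09). At 48 h it ran from 5.62 to 5.89, below every -22 h array, with a change of -0.81 ± 0.19 (adjusted p = 0.00222). Over the 4 cows with all biopsies this last call was lost (adjusted p = 0.125).

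TOMM70, which docks carrier precursors held by cytosolic chaperones, rose earlier and stayed level. It read 11.43, 11.46, 11.49 and 11.67 at 6 h, against 10.19 to 10.70 (median 10.45) at -22 h, and its changes were 1.06 ± 0.11, 1.15 ± 0.09 and 1.07 ± 0.11 at 6, 9 and 12 h (adjusted p = 5.86e-13 at 9 h, 8 of 8 cows). Its second probe set changed by 1.41, 1.41 and 1.76. At 48 h TOMM70 was lower by 0.36 (change -0.36 ± 0.09, adjusted p = 0.00425) in 7 of 8 cows on this probe set, while the second changed by 0.00 (adjusted p = 0.987).

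TOMM34, a cytosolic co-chaperone that carries a TOM name but is no subunit of the pore complex, had the largest change of the 18 import genes over the 5 hours. It read 7.72, 7.74, 7.45 and 7.53 at 6 h, against 3.98 to 5.32 (median 5.03) at -22 h, a rise of 2.68 ± 0.27 (6.42-fold, adjusted p = 9.04e-10). The change was 1.35 ± 0.22 at 9 h and 1.17 ± 0.27 at 12 h, with no overlap with -22 h at any of these hours. The other TOMM34 probe sets lay below a value of 2.6 on every array, apart from 1 that read up to 4.41 at 6 h, where it was called higher (0.78).

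TOMM22, the central receptor, was lower at 6, 9 and 12 h, with 8.62 to 9.30 (median 8.83) at 9 h, against 9.28 to 10.53 (median 10.25) at -22 h, a change of -1.22 ± 0.17 (adjusted p = 3.11e-07) in 8 of 8 cows. The overlap came from 1 cow, which read 9.28 at -22 h. Within a cow, the change of TOMM40 exceeded that of TOMM22 by 2.73 ± 0.48 at 9 h (SD, 8 cows), from 1.99 to 3.42. Of the small subunits that stabilise the complex, TOMM5 was lower at 6 h (6.54, 6.35, 5.59 and 6.02, against 7.07 to 7.71 at -22 h, change -1.30 ± 0.22), TOMM7 was lower at 6, 9 and 12 h (-0.73 ± 0.09 at 9 h), and TOMM6 was higher at 12 h (0.76 ± 0.12, 4 of 4 cows).

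All 5 small TIM chaperones were higher at 6, 9 and 12 h, where 23.3%, 32% and 22.2% of all probe sets were higher. TIMM13 read 11.30, 11.34, 10.85 and 11.18 at 12 h and ran from 10.83 to 11.15 (median 10.95) at 9 h, against 9.02 to 9.95 (median 9.40) at -22 h. Its changes were 0.67 ± 0.12, 1.52 ± 0.10 and 1.71 ± 0.12 at 6, 9 and 12 h (3.27-fold at 12 h, adjusted p = 1.97e-13). TIMM10, the partner of TIMM9 in the hexamer that binds carrier precursors, followed the same course, with changes of 0.69 ± 0.13, 1.57 ± 0.11 and 1.69 ± 0.13. At 9 h TIMM8A was higher by 1.03 ± 0.09, TIMM8B by 1.09 ± 0.09 and TIMM9 by 0.89 ± 0.10, each in 8 of 8 cows and without overlap with -22 h. The TIMM9 call at 6 h (0.29 ± 0.12, adjusted p = 0.0457) was lost without each of cows 1, 2, 3, 5, 6 and 7. That of TIMM8A at 6 h was lost when 1 cow was left out (adjusted p = 0.0569). At 48 h TIMM8A was lower by 0.54 (change -0.54 ± 0.09, adjusted p = 5.04e-05) and TIMM13 by 0.38 (change -0.38 ± 0.10, adjusted p = 0.00629, 0.057 without cow 1), both in 8 of 8 cows and with overlap with -22 h.

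TIMM22, the channel through which carriers enter the inner membrane, was higher at 9 h (5.34 to 6.19, median 5.83, against 4.69 to 5.32, median 5.19, at -22 h) with a change of 0.69 ± 0.18 in 8 of 8 cows, and at 12 h by 0.94 ± 0.22. Its second probe set gave 1.25 at 9 h and 1.57 at 12 h.

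The 5 TIM23 genes went both ways, also within the channel. TIMM44, which anchors the import motor to the channel, read 8.07, 8.31, 7.61 and 8.40 at 12 h, against 5.97 to 6.93 (median 6.47) at -22 h, a change of 1.60 ± 0.16 (adjusted p = 5.02e-10), after -0.06 ± 0.16 at 6 h and 1.06 ± 0.13 at 9 h. TIMM23, a channel subunit, was higher by 1.00 ± 0.09 at 9 h (8 of 8 cows) and 1.33 ± 0.11 at 12 h, and TIMM50, the presequence receptor, by 0.83 ± 0.12 at 12 h. The other channel subunit measured, TIMM17B, was lower at 6 h (-0.60 ± 0.10) and 9 h (-0.69 ± 0.08). TIMM21, which links the complex to TOM and the respiratory chain, read 8.65, 8.17, 8.62 and 8.36 at 6 h, against 9.24 to 9.45 (median 9.31) at -22 h, a change of -0.89 ± 0.10 (adjusted p = 5.93e-09). At 48 h TIMM21 still lay below every -22 h array, at 8.89 to 9.12 with a change of -0.32 ± 0.08, a call that was lost over the 4 cows with all biopsies (adjusted p = 0.207). The 48 h call of TIMM44 (-0.34, adjusted p = 0.0497) was lost without each of 6 cows and after centring (adjusted p = 0.176).

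**Figure D4:**
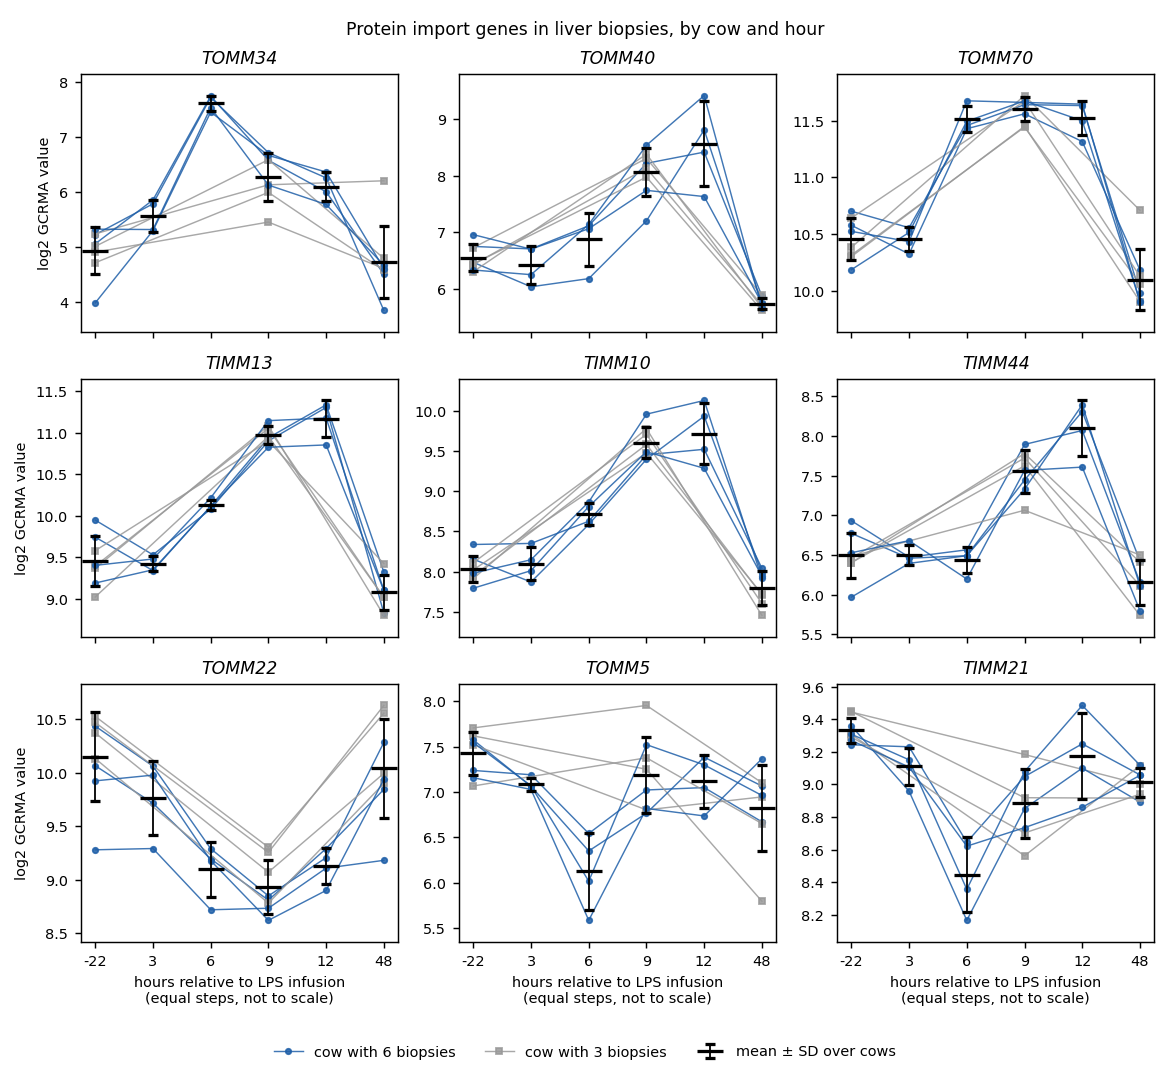
Log2 value (vertical axes, each panel with its own range) of 9 import genes at the 6 biopsy hours from -22 to 48 h, with lines joining the biopsies of a cow (blue circles, cows with 6 biopsies, and grey squares, cows with 3) and black bars for the mean ± SD. TOMM34 is highest at 6 h with all 4 cows between 7.45 and 7.74, TIMM13 and TIMM10 climb to 12 h, and TOMM22, TOMM5 and TIMM21 fall.

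Steps between successive hours were tested with a Bonferroni adjustment over all probe sets and a threshold of 0.01. Of the 57 probe sets, 24 passed in 1 or more steps (22.2% of all probe sets did), 14 of them import and 10 carrier probe sets. The step from -22 to 3 h held 1 member (1.09% of all probe sets), that from 3 to 6 h 5 (8.16%), that from 6 to 9 h 6 (4.84%) and that from 9 to 12 h 2 (2.79%). The step from 12 to 48 h held 21 (16.1%), of which 12 import probe sets all fell, while of the 9 carrier probe sets 6 rose and 3 fell. The 3 were SLC25A5, SLC25A3 and SLC25A51, with SLC25A5 changing by -3.40 ± 0.16 over this step, and the rises included SLC25A21 (2.34 ± 0.32), SLC25A4 (1.69 ± 0.17) and SLC25A11 (1.18 ± 0.16). TIMM17B was the import gene that passed between 9 and 12 h, with a rise of 0.66 ± 0.10.

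The 4 cows with 6 biopsies and the 4 with 3 biopsies could be compared in their 9 h and 48 h changes. No member differed at an adjusted p below 0.05 (lowest 0.957 at 9 h and 1 at 48 h), where 0.00414% of all probe sets did at 9 h and 0% at 48 h. At an unadjusted p below 0.05, 2 members differed at 9 h and 2 at 48 h, all carrier probe sets, against 767 and 514 of all probe sets.

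Genes that act behind the import channels were read from lists drawn up by role. Of 8 measured genes of the matrix import motor, presequence cleavage and folding, 4 were higher and 2 lower at 6 h, 6 and 1 at 9 h, and 5 and 0 at 12 h. Over all genes, 36.6% were higher and 28.4% lower at 9 h, and 30.9% and 22.2% at 12 h. At 6 h, 23.3% of all probe sets were higher and 22% lower, which are shares of probe sets and not of genes. HSPA9, the matrix chaperone that pulls proteins in, rose by 1.57 ± 0.07 at 9 h (8 of 8 cows), and the folding chaperonins HSPD1 and HSPE1 by 1.02 and 1.18. DNAJC19, a co-chaperone of the motor, changed by -0.87 at 9 h (0 of 8 cows higher). Of 11 measured genes of outer membrane insertion and intermembrane space import, 1 was higher and 2 lower at 6 h, 5 and 3 at 9 h (36.6% and 28.4% of all genes were higher and lower), and 7 and 3 at 12 h. CHCHD4, which oxidises small proteins such as the small TIM chaperones in the intermembrane space, was higher in 8 of 8 cows at 9 h and rose by 1.95 at 12 h (adjusted p = 1.00e-10). SAMM50, the insertase for barrel proteins such as TOMM40, changed by -0.82, and IMMP2L, a subunit of the inner membrane peptidase, by -1.33 at 9 h and -2.08 at 12 h.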

How the data were processed

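Liver RNA from 36 biopsies was hybridised to the Affymetrix Bovine Genome Array. The deposited values are log2 expression values per probe set, produced by the authors with GCRMA (background correction, quantile normalization, probe summary), and were used unchanged. Arrays were grouped by hour from the labels. The model, limma (version 3.58.1, R version 4.3.3), had a mean for each hour as in the methods of the study and covered all 24128 probe sets, 112 control probe sets included. It was tested on simulated data with arrays drawn independently and no cow effect. That test cannot show what leaving the cow out of the model does. The number of arrays limits the precision. Genes came from the platform annotation, and a gene was read through its brightest probe set.

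Named genes were the 4 largest rises and falls per hour that ran the same way in every cow, the largest change of each role group in either direction, and genes called in both directions over time or between probe sets (27 genes). The others named with values complete the role groups. Members and lists were chosen with earlier results of these data known. Arrays of a cow are paired: deviations from the hourly means correlated within cows (mean r = 0.316, lowest 0.116). The mean r between cows was -0.0446. Subtracting hourly means taken over the same cows pushes that value to be negative, so it cannot show whether different cows were correlated. The main model has no term for the cow. Its p-values weigh a change against the spread of arrays within an hour, pooled over the hours. That spread mixes differences between cows, biopsies and arrays, and arrays of a cow count as independent. Alternatives were a cow term, single cows or arrays left out, the 4 cows with all biopsies, array weights, centring on probe sets with a mean of at least 5, a dim filter (a value of 5 in 4 or more arrays) and a trended variance.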

Additional observations from a re-analysis of the deposited data

Results flagged for a closer look

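In 27 named genes, 162 groups of 4 to 8 arrays were searched for an array far from the others by Dixon's criterion, and 17 were found. Chance gives about 1 in 20 groups. The 48 h array of cow 2 stood apart in 3 genes, high in TOMM70 (10.71, next 10.18) and TOMM34 (6.20, next 4.79) and low in TOMM5 (5.80, next 6.65). Cow 3 stood apart at 6 h, low in TOMM40 (6.18, next 7.06) and SLC25A34 (3.07, next 3.18) and high in SLC25A28 (12.25, next 11.55), and at 9 h in SLC25A48 (4.45, next 3.84). Cow 1 was low in SLC25A6 at 6 h (11.00, next 11.70) and 12 h (12.34, next 12.62) and in SLC25A3 at 3 h (11.56, next 11.75), and high in SLC25A29 at 3 h (4.69, next 4.16) and SLC25A42 at 12 h (2.72, next 2.24). Cow 8 was low in SLC25A30 at 12 h (3.50, next 5.09), and high in SLC25A5 at 9 h (11.67, next 11.32) and SLC25A44 at 48 h (8.47, next 8.23). At -22 h cow 7 was low in TOMM34 (3.98, next 4.71) and cow 5 high in SLC25A42 (2.74, next 2.34). The causes were not tested.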

How the results depend on the processing

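Over the 5 hours, member probe sets had 140 calls. No alternative turned the direction of a call, 99 calls were lost under none of the alternatives run, and 31 were lost when 1 of the 8 cows was left out (8 to 17 calls per cow). In the paired fit, where the cow was the replicate block, 4 calls were lost and 6 gained, and 20 members passed between successive hours against 24 without it. As a random block the cow lost none and gained 6 (26 members between hours). Both left the count of calls at every hour within 1.5 times the main count. The 4 calls lost were SLC25A12 and SLC25A14 at 12 h, SLC25A48 at 3 h and a dim TOMM34 probe set at 6 h.

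With only the 4 cows that have all biopsies, carriers had 2 calls at 3 h and 5 at 48 h and import had 3 at 48 h, against 4, 12 and 9 over 8 cows. With array weights carriers had 8 calls at 3 h, and after the dim filter 7 at 48 h. The median carrier change was -0.17 at 9 h and 0.16 at 12 h with 1 probe set per gene, and 0.19 at 12 h after the dim filter. Centring the arrays, which moved the median of all probe sets by 0.13 at 48 h, gave 48 h medians of 0.055 for carriers and -0.025 for import. Without 1 cow, carriers had 2 to 4 calls at 3 h (the main count is 4, and 2 without cow 5 or 7). Over the 4 cows SLC25A17 was called at 12 h (0.41), and SLC25A30 at 9 h (-0.98), SLC25A38 at 48 h (-0.37) and SLC25A48 at 6 h (0.76) were not. The causes were not tested. A fit over 4 cows also has fewer samples. Values near the floor bound what falls can be seen.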

Other observations

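Other routes for solutes across the mitochondrial membranes were measured in 14 genes. At 9 h, 2 were higher and 7 lower, and at 12 h 3 and 3, where 36.6% of all genes were higher and 28.4% lower at 9 h, and 30.9% and 22.2% at 12 h. SFXN1, a serine transporter of the inner membrane, had the largest change, -4.58 at 9 h and -4.54 at 12 h, from a mean of 11.21 at -22 h. The subunits of the mitochondrial pyruvate carrier parted, with MPC2 changing by -1.69 at 9 h (0 of 8 cows higher, adjusted p = 8.28e-15) and MPC1 by 0.50 (4 of 8 cows higher, adjusted p = 0.0502). Of the porins of the outer membrane, VDAC2 was higher at 9 h (0.86) and VDAC3 lower (-0.77). TSPO, an outer membrane protein also abundant in macrophages, was higher by 1.85 at 9 h in 8 of 8 cows. UCP1, UCP2 and UCP3 lay at the floor.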
